A study of Mus musculus with 21 samples.

Results

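The pigment cell genes Dct, Tyr, Tyrp1, Pmel, Mlana, Slc45a2, Mitf, Sox10, Kit and Kitl were followed in GFP+ epidermal cells of mice with and without induced p16. They were picked by gene symbol as known genes of melanocytes and made up 10 of the 22050 entries of the expression table. Melanocytes are cells of neural crest origin that sit in the hair follicle and the epidermis and pass pigment to keratinocytes. They build it in melanosomes, where tyrosinase (Tyr) starts melanin synthesis and Tyrp1 and Dct, also called dopachrome tautomerase, act on later intermediates. Pmel forms the fibrils on which melanin is laid down, Mlana is a protein of the melanosome membrane, and Slc45a2 is a transporter of the melanosome. The transcription factors Sox10 and Mitf drive the genes of this lineage, and the receptor Kit answers to its ligand Kitl, which is made by keratinocytes and other skin cells.

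The study induced human p16INK4a, an inhibitor of the kinases CDK4 and CDK6, in mouse epidermis and profiled the cells by mRNA sequencing. Both groups carried K5-rtTA and tet-GFP, in which the keratin 5 promoter drives the doxycycline-dependent activator in basal keratinocytes, and the p16 group also carried tet-p16. Mice of a mixed FVB/C57Bl/129sv background received doxycycline from 3 weeks of age for 6 months. GFP+ cells of dorsal skin were sorted after cells with CD140a, CD45 or CD31 had been gated out, so that the controls shared the induction, the GFP and the sort. Each sample held about 80000 cells pooled from 3 mice, with 4 control and 4 p16 samples. No marker of pigment cells was used in the sort, and whether the pigment cells among the sorted cells carried GFP was not tested. A further 13 samples of a second profiling were not analysed here.

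The deposited values are read counts that were scaled by 1 size factor per sample, called normalized read counts here. Reads on genes numbered from 1760953 to 3414362 in control samples and from 2884544 to 3202975 in p16 samples, and 1 read was worth between 0.742 and 1.53. A value of 3 reads or fewer was taken as the limit of detection, which lay between 2.23 and 4.58 depending on the sample. The human CDKN2A transgene was at 0.7 to 2.5 in controls and at 1.6, 10.1, 16 and 7.4 in the p16 samples, from replicate 1 to 4. With only 2 reads of it, the library labelled p16 replicate 1 was within the control range. EGFP was detected in every sample, at 4152 to 5913 in controls and at 3162 to 3979 in p16. Replicate 3 of both groups has another wording of the library protocol in the labels. The members Dct, Sox10, Kit, Pmel, Mitf and Kitl are also in a list of lowered genes that the study drew from these samples, so their direction is not independent evidence.

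The promoters of the melanin synthesis genes are shown because they carry the letters CATGTG, the core of the M-box bound by Mitf, given in capitals on either strand and written as CACATG where it lies on the opposite strand. The Dct and Tyr sequences are the 250 bases before the RefSeq start of each gene (GRCm38.p6), chr14:118052247-118052496 and chr7:87493513-87493762, both on the minus strand. For Tyrp1 the 30 bases around the motif are given, chr4:80834155-80834184 on the plus strand. They lie before the RefSeq start used here but inside the GENCODE span of the gene, which begins at chr4:80834123.
Dct: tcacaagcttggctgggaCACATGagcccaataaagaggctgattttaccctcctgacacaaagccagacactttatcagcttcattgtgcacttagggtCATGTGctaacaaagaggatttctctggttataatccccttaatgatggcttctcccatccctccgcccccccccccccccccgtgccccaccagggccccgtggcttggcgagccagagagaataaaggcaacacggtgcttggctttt
Tyr: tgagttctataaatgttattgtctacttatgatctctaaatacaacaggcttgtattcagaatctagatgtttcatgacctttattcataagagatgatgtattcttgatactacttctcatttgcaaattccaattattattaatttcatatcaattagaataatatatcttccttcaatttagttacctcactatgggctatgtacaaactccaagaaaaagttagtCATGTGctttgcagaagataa
Tyrp1: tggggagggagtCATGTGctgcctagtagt
CATGTG ended 145 bases before the start in Dct, 16 bases before it in Tyr and 41 bases before it in Tyrp1, and Dct held a further copy on the opposite strand. Promoter windows from 250 bases before to 50 bases after the start were found for 6 of the 10 members, with 9 windows in all. CATGTG occurred in 3 of these 9 windows and in 14.2% of all 32851 windows. The longer TCATGTG, which contains it, occurred in the same number of member windows, 3 of 9, and in 3.77% of all windows. CACGTG, the other common core of Mitf sites, occurred in 0 of the 9 member windows and in 7.15% of all. The letters ACAAAG and ACAATG, core sequences of Sox sites, were found in 2 and 1 member windows and in 18.7% and 12.6% of all windows. These are matches of letters and no measure of binding.

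All 10 members had a lower mean in p16 than in control cells. Dct and Tyrp1 passed the test across all genes (limma on log2(value + 1), adjusted p under 0.05), so that 2 of the 9 members tested were called lower and 0 called higher, where 2.61% of the 12782 genes tested were called lower and 1.24% higher. With an unadjusted limma p under 0.05, 7 of the 9 were lower, against 8.93% of all genes tested. The median log2 fold change of the 9 members was -1.71, and that of all genes tested was -0.00275. The p16 values lay wholly below the control values for Tyrp1, Kit and Kitl, or 3 of 9, against 5.63% of all genes tested. In bulk samples such as these, fewer cells of a type and less RNA per cell cannot be told apart. The count of 2 rests on single libraries: it was 0 without control replicate 1, control replicate 4, the library labelled p16 replicate 1 or p16 replicate 3, and 4 without p16 replicate 2.

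**Figure D1:**
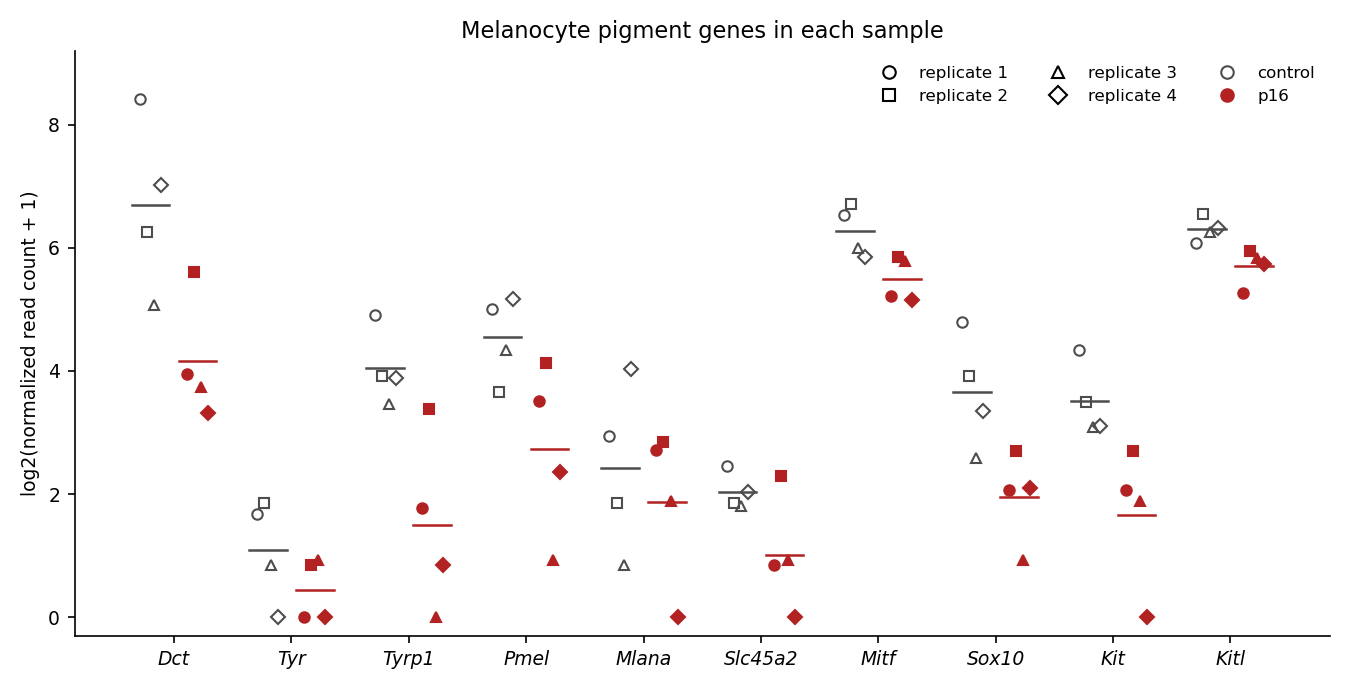
Normalized read counts of the 10 members in each sample, on the scale log2(value + 1), with controls as open grey symbols and p16 as filled red ones, the symbol shape giving the replicate number and the short line the group mean. The means of Dct, Tyrp1, Pmel, Sox10 and Kit sit far lower in p16, those of Mitf and Kitl less so. Only Tyrp1, Kit and Kitl show no overlap between the groups, and only Dct and Tyrp1 were called by limma. The highest p16 sample is replicate 2 for 9 of the 10 genes.

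Among the enzymes, Dct had the most reads and, in controls, the widest range. From replicate 1 to replicate 4, its normalized read counts were 342.0, 75.7, 32.6 and 128.3 in controls and 14.4, 47.6, 12.4 and 9.0 in p16 cells. The values of other genes follow the same order. Of the p16 samples, 3 were below every control, while p16 replicate 2 was above control replicate 3. Controls alone spanned a 10.5-fold range. The means were 145 ± 137 in control and 20.9 ± 18.0 in p16 (SD, n = 4 each), and the log2 fold change was -2.54 (SE 0.58, 95% interval -3.78 to -1.29, limma adjusted p = 0.0236). The exact two-sided permutation test on the 4 against 4 values gave p = 0.0571, where the smallest possible value is 0.0286. The call was lost with any of 4 libraries left out, and the adjusted limma p over the 8 fits with a library left out was 0.00585 to 0.0745. Dct (ENSMUSG00000022129) lies at chr14:118012790-118052244 on the minus strand of GRCm38.

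Tyrp1 (chr4:80834123-80851719) was at 28.9, 14.1, 10 and 13.8 in the 4 controls and at 2.4, 9.4, 0.0 and 0.8 in the 4 p16 samples. The groups did not overlap, with the highest p16 sample just under the lowest control. The log2 fold change was -2.54 (SE 0.59, 95% interval -3.81 to -1.28, limma adjusted p = 0.0257) and the exact permutation p was 0.0286. For a gene as low as this the log2 fold change depended on the pseudocount, at -3.68 with 0.1 and -1.47 with 5. On the recovered reads it was -2.38 with edgeR and TMM scaling and -2.40 with DESeq2. The adjusted limma p ranged from 0.00201 to 0.107 with 1 library left out, and 3 of those 8 fits kept the call.

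Tyr itself was at the limit of detection in both groups. Its values were 2.2, 2.6, 0.8 and 0.0 in controls and 0.0, 0.8, 0.9 and 0.0 in p16, from 6 and 2 reads. No difference was detectable at this depth (exact permutation p = 0.343), and no fold is given. Tyr lies at chr7:87424771-87493512 on the minus strand.

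Of the other melanosome genes, Pmel (chr10:128704195-128720238) was at 31.2, 11.6, 19.2 and 35.1 in controls and at 10.4, 16.4, 0.9 and 4.1 in p16. Again 3 p16 samples lay below all controls, and p16 replicate 2 lay above control replicate 2. The log2 fold change of -1.82 (SE 0.57) did not pass the limma test (adjusted p = 0.102). Without p16 replicate 2 it was -2.28 and passed (limma adjusted p = 0.0304).

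Mlana (chr19:29697824-29708634) was at 6.7, 2.6, 0.8 and 15.3 in controls and at 5.6, 6.2, 2.7 and 0.0 in p16, and the groups overlapped. Its log2 fold change was -0.55 with a 95% interval from -2.07 to 0.96 (limma adjusted p = 0.784). Slc45a2 (chr15:11000721-11029233) was at 4.5, 2.6, 2.5 and 3.1 in controls and at 0.8, 3.9, 0.9 and 0.0 in p16. Its log2 fold change was -1.02 (SE 0.51, limma adjusted p = 0.349). Both genes rest on few reads, 22 and 13 in all controls.

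The lineage regulators had lower p16 means by unequal amounts. Mitf (chr6:97807052-98021349) was at 92.0, 104.0, 62.6 and 56.5 in controls and at 36, 57, 54.1 and 34.5 in p16, so that only p16 replicate 2 reached the lowest control. Its p16 mean was 57.6% of control, with 78.8 ± 22.9 in control and 45.4 ± 11.8 in p16 (SD, n = 4 each). The difference on the log2 scale, -0.77 (SE 0.23), did not pass (limma adjusted p = 0.0813). Mitf is made in several forms, some of them outside pigment cells, which reads summed over the gene do not separate.

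Sox10 (chr15:79154908-79165240, minus strand) was at 26.7, 14.1, 5.0 and 9.2 in controls and at 3.2, 5.5, 0.9 and 3.3 in p16. Here too only p16 replicate 2 was above the lowest control, which was replicate 3. The log2 fold change was -1.71 (SE 0.49, limma adjusted p = 0.0733) and the exact permutation p was 0.0571. Kit (chr5:75574916-75656722), the receptor, was at 19.3, 10.3, 7.5 and 7.6 in controls and at 3.2, 5.5, 2.7 and 0.0 in p16. The groups did not overlap, yet the log2 fold change of -1.84 (SE 0.53) missed the threshold (limma adjusted p = 0.0733, exact permutation p = 0.0286).

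Kitl, the ligand of Kit, differed from the other members in its spread. It was at 66.8, 92.4, 75.2 and 79.4 in controls and at 37.6, 60.9, 55.9 and 52.6 in p16, without overlap. The controls spanned only a 1.38-fold range. Its mean was 78.5 ± 10.7 in control and 51.8 ± 10 in p16 (SD, n = 4 each), or 66.0% of control. The log2 fold change was -0.60 (SE 0.17, 95% interval -0.98 to -0.23), with a limma adjusted p of 0.0758 and an exact permutation p of 0.0286. Kitl lies at chr10:100015630-100100416.

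Whether the members were lower in proportion was examined with the summed reads and, sample by sample, relative to Dct. A loss of pigment cells alone would lower every gene that only those cells express by 1 common factor. The ratio of summed reads, p16 over control after scaling by the size factors, was 0.132 for Dct (exact 95% interval 0.106 to 0.163), 0.184 for Tyrp1 (0.0998 to 0.320), 0.221 for Sox10 (0.119 to 0.390) and 0.238 for Kit (0.121 to 0.439). The intervals of these 4 genes overlapped. The ratio of Pmel was 0.337 (0.227 to 0.491), whose interval lay above that of Dct and overlapped those of the other 3 genes. Mitf, at 0.569 (0.477 to 0.678), and Kitl, at 0.677 (0.570 to 0.802), had intervals above those of all 4. The ratios of Slc45a2, 0.439 (0.148 to 1.19), and Mlana, 0.668 (0.338 to 1.30), had intervals that included 1. The interval of Mlana nevertheless lay above those of Dct and Tyrp1. These intervals cover counting error only, not the spread between samples, since the reads were summed over the libraries of each group. The sources used here do not say whether molecular identifiers were counted, so the intervals may be too narrow even for counting error.

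**Figure D2:**
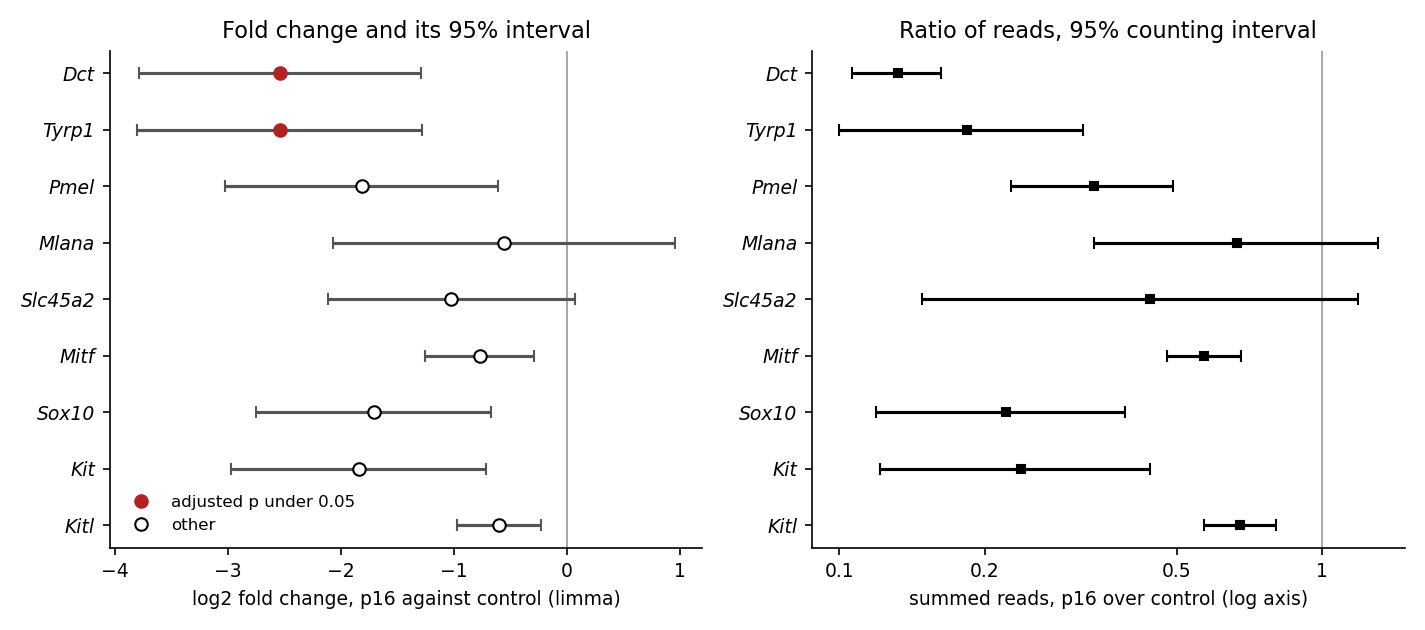
Left, limma log2 fold change of the 9 members tested with its 95% interval, red where the adjusted p was under 0.05. Right, ratio of summed reads (p16 over control, log axis) with its exact 95% counting interval. Dct at 0.132 and Kitl at 0.677 mark the lower end and the upper end of the ratios, and the counting intervals of Dct and Kitl are far narrower than those of Mlana and Slc45a2.

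Single libraries moved these ratios. Control replicate 1 supplied most Dct reads of the control group, and without it the Dct ratio was 0.308 in place of 0.132 and the Sox10 ratio 0.375 in place of 0.221. The ratios of Tyrp1, Kit and Pmel were then 0.270, 0.343 and 0.392, each nearer to that of Dct than with all 8 libraries. Without p16 replicate 2 the ratios were 0.0740 for Dct, 0.0624 for Tyrp1, 0.217 for Pmel and 0.170 for Slc45a2. The Mlana ratio was 1.02 without control replicate 4. Over all 8 libraries left out in turn, the ratio stayed at 0.517 to 0.618 for Mitf and at 0.634 to 0.740 for Kitl, above the 0.0740 to 0.308 of Dct.

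Relative to Dct in the same sample, on the scale log2((value + 1)/(Dct value + 1)), Kitl was at -0.39 on average in control (range -2.34 to 1.18) and at 1.55 in p16 (range 0.35 to 2.42). The difference of 1.94 (SE 0.88) was in the direction of a smaller decrease than that of Dct, but the groups overlapped and the exact permutation p was 0.0571. Mitf differed by 1.77 (SE 0.77, exact permutation p = 0.0857), Mlana by 1.99 (SE 0.69, exact permutation p = 0.0571) and Slc45a2 by 1.52 (SE 0.58, exact permutation p = 0.0857). Tyrp1 differed by less than 0.01 in size, at -0.00478 (SE 0.56, exact permutation p = 1), but this value moved with the setting, from -1.07 at a pseudocount of 0.1 to 0.81 at a pseudocount of 5. Between these were Sox10 at 0.83 (SE 0.54), Kit at 0.69 (SE 0.62) and Pmel at 0.72 (SE 0.77), with exact permutation p values of 0.171, 0.343 and 0.371. Tyr, at 1.89 (SE 0.85, exact permutation p = 0.114), has little meaning here because it was at the limit of detection. After Benjamini-Hochberg adjustment over the 9 ratios, the smallest exact permutation p was 0.193. With 4 against 4 samples, the exact permutation p cannot be under 0.0286 before adjustment. A fully separated ratio could therefore not pass alone after adjustment, and the adjusted value does not decide whether the decrease was in proportion. Since Kitl is made by other skin cells and some forms of Mitf outside pigment cells, these 2 genes do not bear on a common factor of pigment cell genes. Kit and Sox10 are not limited to pigment cells either, so the same limit applies to their ratios. Among the melanosome genes, the counting intervals of Pmel and Mlana lay above that of Dct. No interval was computed without control replicate 1, where the ratios were 0.308 for Dct, 0.392 for Pmel and 0.747 for Mlana. Relative to Dct, however, the groups overlapped for both (exact permutation p = 0.371 for Pmel and 0.0571 for Mlana).

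**Figure D3:**
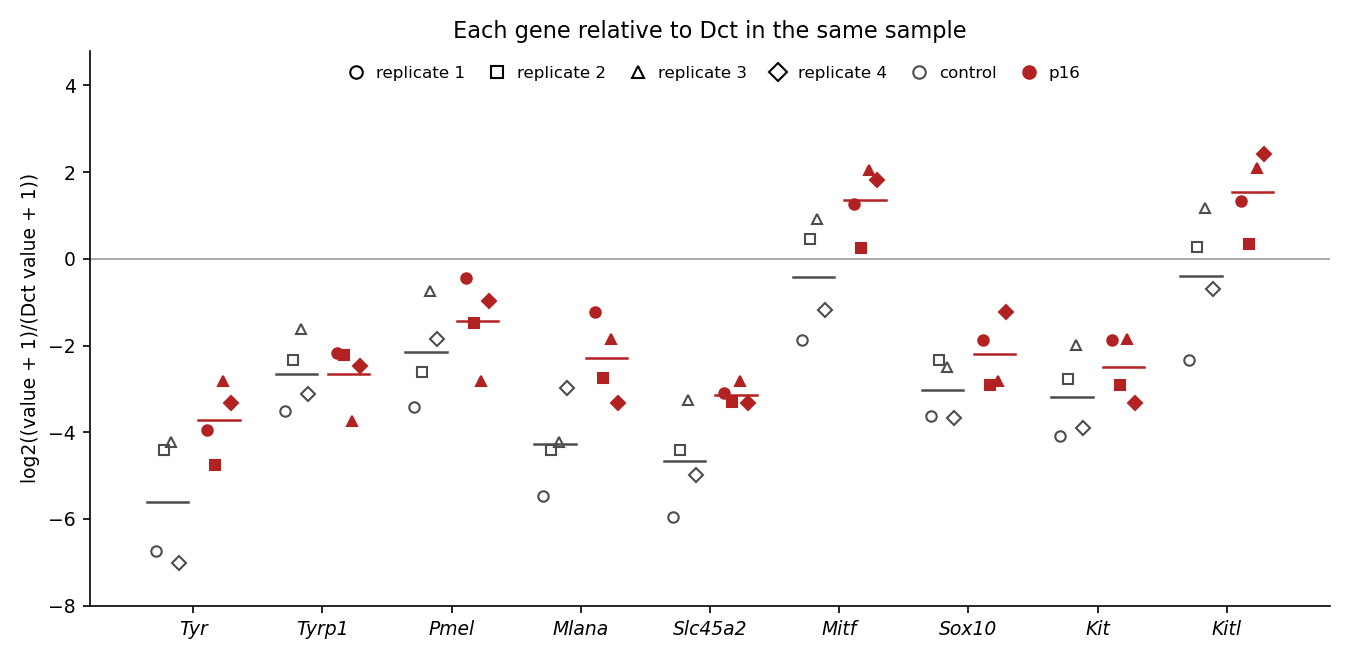
Each member relative to Dct in the same sample, as log2((value + 1)/(Dct value + 1)), with controls open and p16 filled. Tyrp1 has nearly the same mean in both groups, whereas Kitl and Mitf have higher means in p16, with p16 replicate 2 inside the control range for both.

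Dct also made up an unequal share of the reads of the 6 melanosome genes (Dct, Tyr, Tyrp1, Pmel, Mlana and Slc45a2). The share was 82.3%, 69.4%, 49.4% and 65.6% in the 4 controls and 42.9%, 56.5%, 70% and 64.7% in the 4 p16 samples. Control replicate 1 had the highest share (exact 95% interval 78.9% to 85.4%), the groups overlapped, and the intervals of p16 replicates 3 and 4 were wide, as they rest on 20 and 17 reads. The summed normalized read count of the 6 genes was 65.9 to 415.5 in control and 13.9 to 84.3 in p16, with a p16 mean of 19.0% of the control mean. That percentage was 30.3% without control replicate 1 and 11.1% without p16 replicate 2. The highest p16 sample, replicate 2, was above the lowest control, replicate 3.

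Within the groups, the members other than Kitl tended to vary with Dct. Over the 8 samples, the Pearson r of deviations from the group means, given as a description, was 0.79 between Dct and Sox10, 0.77 between Dct and Tyrp1, 0.77 between Dct and Slc45a2, 0.71 between Dct and Mlana and 0.70 between Dct and Kit. It was 0.57 for Pmel, 0.46 for Mitf, 0.31 for Tyr and -0.02 for Kitl. Tyrp1 and Pmel had an r of 0.85. All points share the libraries and their depth, and low genes move by single reads. In controls 5 members had their highest value in replicate 1, and 9 of 10 had their highest p16 value in replicate 2.

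The 10 genes with the pattern most like Dct over all 8 samples, by Pearson r of log2(value + 1), were Dnaja4, Mlph, Enpp2, Vim, Mcoln3, Nmt1, Polr3gl, Snrpb2, Fam161b and Acat1, with r from 0.97 to 0.95. Mlph encodes melanophilin, which links melanosomes to myosin Va, and Mcoln3 is an endosomal channel of pigment cells. Mlph was at 8.9, 3.9, 3.3 and 6.1 in controls and at 1.6, 2.3, 0.9 and 0.8 in p16 (log2 fold change -1.41, limma adjusted p = 0.0874), without overlap. Vim, the intermediate filament of mesenchymal and neural crest cells, was at 89.0, 50.1, 25.9 and 67.2 in controls and at 10.4, 20.3, 10.6 and 5.8 in p16, and fell by 2.20 on the log2 scale (limma adjusted p = 0.00422). By deviations from the group means alone, the 10 nearest genes were Dnaja4, Vim, Mlph, Arhgef17, Phf11c, Enpp2, Phf8, Mrps15, Ctr9 and Nmt1. Among the 12781 other genes tested, Sox10 ranked 190, Tyrp1 228, Slc45a2 232, Mlana 399 and Kit 460 by this measure. Further down were Pmel at 1080, Mitf at 1846 and Kitl at 6770, so many genes outside the members followed Dct more closely.

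Other genes known from melanocytes gave a mixed picture. Of 18 listed, 15 were tested, 3 were called lower and 0 higher by limma, and the median log2 fold change was -0.54. The log2 fold change was negative for 13 of the 15. At an unadjusted limma p under 0.05, 6 were lower and 1 was higher. The higher gene was Rab38, at 190 in control and 231 in p16. Gpnmb also had a higher p16 mean, 277 against 150 in control, with overlapping groups (limma adjusted p = 0.465). The genes called lower were Pax3, a transcription factor upstream of Mitf, Mcoln3 and S100b, a calcium-binding protein of neural crest cells. Pax3 was at 14.8, 6.4, 5.8 and 13.8 in controls and at 0.8, 3.9, 0.9 and 4.1 in p16 (log2 fold change -1.78, limma adjusted p = 0.0486), without overlap. Mcoln3 was at 40.1, 14.1, 10 and 16.8 in controls and at 4.0, 9.4, 5.3 and 1.6 in p16 (log2 fold change -1.79, limma adjusted p = 0.0435). No p16 sample had S100b above 3 reads, and the controls had only 5, 4, 5 and 3 reads, so control replicate 4 was at the limit too. From the control mean of 4.4, S100b was 1.78-fold lower against the floor of 3 reads per library. That value rests on 17 control reads. These calls rest on the settings and the libraries: with 1 library left out, Pax3 and Mcoln3 kept theirs in 2 of 8 limma fits each and S100b in 1 of 8, and over all other settings Pax3 was called in 5 of 17, Mcoln3 in 7 of 19 and S100b in 3 of 16. Erbb3, which keratinocytes also express, had the highest mean over all samples in this list. It was at 272 in control and 253 in p16 (limma adjusted p = 0.665). Gpr143 and Oca2, a receptor and a transporter of the melanosome, were at 0 in every sample.

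**Figure D4:**
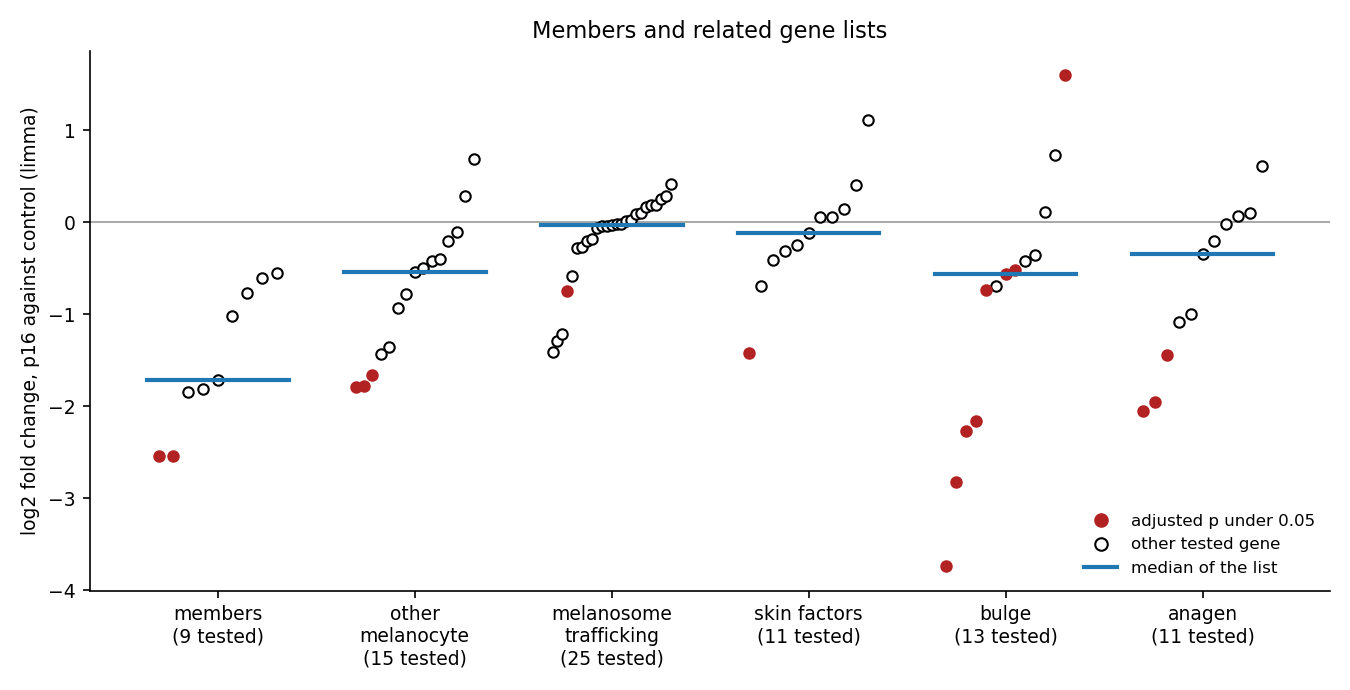
Limma log2 fold change of each gene tested in the members and in 5 related lists, red where the adjusted p was under 0.05, with the list median as a blue line. The member median is -1.71, the trafficking genes centre on -0.02, and the bulge list holds both the genes that fell most and 1 that was called higher.

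Genes of melanosome biogenesis and transport that many cell types use centred near a log2 fold change of 0 as a list. All 25 were tested, 1 was called lower by limma and 0 higher, and the median log2 fold change was -0.02. The gene that fell was Myo5a, the motor that carries melanosomes, with 143.2, 145.0, 153.7 and 125.3 in controls and 66.4, 88.2, 99.3 and 86.3 in p16 (log2 fold change -0.74, SE 0.14, limma adjusted p = 0.00757). The call held in all 19 other settings. Its groups did not overlap, and its controls varied far less than those of Dct. Ap3d1, a subunit of an adaptor complex for protein sorting, had the highest level in this list.

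Skin factors that act on melanocytes, other than Kitl, mostly did not pass the test. Of the 11 tested of 18 listed, 1 was called lower by limma and 0 higher, and the median log2 fold change was -0.11. Bdnf, a neurotrophin, was at 27.4, 20.5, 9.2 and 15.3 in controls and at 4.8, 4.7, 10.6 and 4.1 in p16 (log2 fold change -1.42, limma adjusted p = 0.0466), with p16 replicate 3 above control replicate 3. The Bdnf call held in 7 of 19 other settings and in 2 of 8 fits with a library left out. Cxcl12, a chemokine with the highest level of the list, was at 330 in control and 265 in p16 (limma adjusted p = 0.305). Edn3, Pomc, Hgf and Corin were at 0 in every sample.

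Markers of the hair-follicle bulge, where melanocyte stem cells reside beside hair-follicle stem cells, were mostly lower in p16. Their part in the pigment result was not tested. Of 14 listed, 13 were tested, 7 were called lower by limma (Cd34, Tbx1, Fgf18, Lhx2, Sox9, Krt15 and Nfatc1) and 1 higher (Tgfb2), with a median log2 fold change of -0.56. Cd34, a surface marker of bulge cells, was at 238.9, 174.5, 121.9 and 140.6 in controls and at 8.8, 14.1, 8.0 and 16.4 in p16 (log2 fold change -3.74, SE 0.25, limma adjusted p = 3.27e-06). Lhx2, a transcription factor of bulge cells, had a log2 fold change of -2.16 (SE 0.23, limma adjusted p = 0.000111). Both genes were called in each of the 8 fits with a library left out, and Dct in 4 of them. Of the other bulge genes called, Krt15 was called in 3 of these fits, Sox9 and Fgf18 in 4, and Tbx1, Nfatc1 and Tgfb2 in 8. Tgfb2, a growth factor that acts on melanocyte stem cells, was at 36.3, 27.0, 21.7 and 21.4 in controls and at 76.8, 82.0, 151.6 and 44.4 in p16 (log2 fold change 1.60, limma adjusted p = 0.00715). The summed level of the bulge list, which Krt15 leads, was 17919 to 23446 in control and 15237 to 15920 in p16. Krt15 had 8065 to 11381 reads in controls, a narrower relative range than that of their depth. Its normalized values, and this sum, may therefore follow the size factor in part, which was not tested.

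Kit, Sox10 and Vim are not limited to pigment cells, so markers of other cells that carry them were read beside them, although the CD45 and CD140a gates would remove mast cells and fibroblasts. Of 9 mast cell markers, which mark another Kit-bearing cell, 6 (Cpa3, Mcpt4, Cma1, Tpsb2, Tpsab1 and Fcer1a) were at 0 in every sample, none was high enough to be tested, and the summed level was 0 to 2.5 in control and 0 to 2.7 in p16. Of 9 Schwann cell markers, which mark another Sox10-bearing cell, 7 were tested and 0 called by limma, with 2 lower and 2 higher at an unadjusted limma p under 0.05. The summed level was 2024 to 2524 in control and 2249 to 2466 in p16, most of it Pou3f1 and Egr2, which keratinocytes also express. The Schwann cell markers Cdh19 and Foxd3 were at the limit of detection. Of 8 fibroblast markers, 5 were tested and Dcn alone was called, higher in p16, with 1 lower and 2 higher at an unadjusted limma p under 0.05, while Lum was at 0. Col1a2 was at 17.8, 10.3, 4.2 and 9.2 in controls and at 1.6, 3.1, 2.7 and 3.3 in p16, without overlap and opposite in direction to Dcn (log2 fold change -1.51, limma adjusted p = 0.0571). The summed fibroblast level was 11.6 to 27.5 in control and 42.8 to 220.7 in p16, nearly all of the rise being Dcn, which went from 5.85 to 104.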

How the data were processed

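mRNA of GFP+ epidermal cells was profiled in 4 control and 4 p16 samples, grouped by their labels. Per the paper's methods, libraries were of the 3′ type (CEL-Seq2, adapted) and reads were trimmed with Cutadapt. The submitters' processing notes name TopHat2, HTSeq, DESeq2 and GRCm38, with no versions. The annotation release and the use of molecular identifiers are not given in the sources used here. The authors deposited signal values, that is gene read counts scaled by 1 size factor per sample, to 1 decimal. Columns of the authors' own comparison (group means, fold change, statistic, p and adjusted p) were not used. In each sample the step between low values is the worth of 1 read. Division by this step gave a whole number for 100% of values (within 0.05, the rounding of the file, plus 0.0001 of the value), and these reads were used for counting intervals and count tests.

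The main test was limma 3.58.1 in R 4.3.3, with eBayes and its trend option, on log2(value + 1). It took in 12782 genes, those whose mean over the 8 samples reached 1. P-values were adjusted over all of them by the Benjamini-Hochberg method, and genes under 0.05 were called, 159 higher and 334 lower in p16. Single genes were compared with an exact two-sided permutation test over the 70 splits, and ratios of summed reads were given with an exact conditional binomial 95% interval (SciPy 1.17.1). Per the paper's methods, both groups came from littermates and the replicates from 3 independent experiments. Which sample came from which experiment is not given in the sources used here, so experiments could not be fitted, and p-values measure the spread between these pools of 3 mice. Without a stated strand setting, reads of overlapping antisense genes cannot be told apart.

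The members, the gene lists and the tests were chosen with earlier results of these data known. Named genes were the members, each called gene and the gene with the highest level of every other list, and the 10 genes nearest to Dct by each measure, with other genes named after their values were seen. One bulge list gene, Col17a1, is also in the basal keratinocyte list. Symbols were matched to Ensembl identifiers, and Asip, Krt85, Trac and Trdc had no match. Coordinates are those of GENCODE vM21 (GRCm38) and promoter sequences those of RefSeq (GRCm38.p6), with windows for Dct, Tyr, Tyrp1, Mitf, Kit and Kitl. Alternatives were other pseudocounts, filters and scalings, a replicate block, a term for the library protocol, edgeR 4.0.16 and DESeq2 1.42.0 on the recovered reads, and leaving out libraries. The ratios of summed reads and the summed level of the 6 melanosome genes with a library left out were added after the data were seen.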

Additional observations from a re-analysis of the deposited data

Results flagged for a closer look

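In the p16 group, Dct was at 47.6 in replicate 2 and between 9.0 and 14.4 in the other 3 samples, a gap large against the range of the group by Dixon's test. Of the 38 groups of 4 values examined (10 genes and 9 ratios to Dct, each in control and p16) this was the only one past the 95% critical value, and chance alone passes about 1 in 20.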

How the results depend on the processing

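Dct kept its call under 15 of 19 other settings and Tyrp1 under 11 of 19, and the 9 members tested kept their direction under every setting that tested them, except Mlana at 0.069 (log2) without p16 replicate 4. Tyrp1 missed the threshold at a pseudocount of 0.1 (-3.68), with edgeR and TMM scaling (-2.38) and without replicate 3 of both groups (-2.24). Calls were gained by Mitf (-0.80) and Sox10 (-2.11) with DESeq2, by Sox10 with the library protocol term (-1.71) and by Kit at a pseudocount of 5 (-1.04). With 1 library left out the log2 fold change was -3.08 to -1.96 for Dct, -3.17 to -2.04 for Tyrp1, -2.28 to -1.22 for Pmel, -1.08 to 0.069 for Mlana, -2.07 to -1.33 for Sox10 and -2.19 to -1.29 for Kit. The members called lower then numbered 0 to 4, and all genes called 69 to 196 higher and 177 to 343 lower. Without replicate 3 of both groups, 66 genes were called higher, 157 lower and 1 member lower. The members called lower were 1 at a pseudocount of 0.1 (all genes 138 higher, 295 lower), 1 with edgeR TMM (160 and 299) and 4 with DESeq2 (190 and 356). Sox10, Kit, Mlana and Slc45a2 were too low for the edgeR filter, and Mlana and Slc45a2 for a mean of at least 5. Relative to Dct, Tyrp1 turned to 0.81 at a pseudocount of 5 and was at 0.70 without replicate 3 of both groups and at -0.73 relative to Pmel, and Kit to -0.18 at a pseudocount of 0.1 and to -0.027 relative to Pmel. The cause was not tested for any of these.

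Replicate numbers are shared between the groups, but same-numbered samples deviated together only weakly (r = 0.055, 0.0044, 0.046 and 0.083), and 4 of 8 samples matched their own number best. With the numbers as a replicate block, 6 members were called lower: Dct, Tyrp1, Mitf (-0.77), Sox10 (-1.71), Kit (-1.84) and Kitl (-0.60), with 216 genes called higher and 392 lower in all. Relative to Dct the block gave exact sign-flip p values from 0.125 to 1, where 0.125 is the smallest that 4 pairs allow. Tyr, Slc45a2 and Mlana rest on too few reads for a fold of moderate size to be seen.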

Other observations

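Genes of the growing hair follicle, where pigment is passed to the hair, were lower in part. Of 16 listed, 11 were tested, 3 were called lower by limma and 0 higher, and the median log2 fold change was -0.34. At an unadjusted limma p under 0.05, 3 were lower and 1 was higher. The higher gene was Msx2, at 10.9 to 26.7 in controls and 27.1 to 40.8 in p16 (log2 fold change 0.62, limma adjusted p = 0.282). Hoxc13, a transcription factor of hair differentiation with the highest level of the list, was at 171.4, 80.9, 158.7 and 218.5 in controls and at 56.8, 63.2, 55.9 and 41.9 in p16 (log2 fold change -1.44, limma adjusted p = 0.00371). Krt75, a keratin of the hair follicle, fell by 2.05 on the log2 scale (limma adjusted p = 0.00326). Krt35, a hair keratin, was at 0 in every p16 sample and between 1.5 and 6.7 in controls, where replicate 3 alone had more than 3 reads, so no fold is given, and it was called in 1 of 7 fits with a library left out.

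Of the keratinocytes, which make up most of the sort, 6 basal markers were tested and 0 called by limma, with 0 lower and 2 higher at an unadjusted limma p under 0.05. Krt5, the basal keratin with the highest level, was at 13137 in control and 10044 in p16 (limma adjusted p = 0.412). Its reads were nearly equal in all libraries, at 11761 to 12279, although reads on genes ran from 1760953 to 3414362. The normalized values of Krt5 therefore mostly followed the size factor, and their difference cannot be read as one of level. Krt14, at 10186 to 12146 reads, has the same limit. Of 7 markers of differentiated keratinocytes, Lor, a protein of the cornified envelope, rose (log2 fold change 1.72, limma adjusted p = 0.00951), and Sbsn and Ivl fell (-0.92 and -1.06), Ivl in 5 of 8 fits with a library left out, while Krt10 had the highest level. In the other lists 0 genes were called by limma: 4 T cell genes, led by Thy1, with 1 lower and 1 higher at an unadjusted limma p under 0.05, 4 myeloid genes, led by Cd74, with 0 lower and 1 higher, 2 Merkel cell genes, led by Krt18, with 1 lower and 0 higher, and 1 endothelial gene, Pecam1, with 0 either way. The summed T cell level was 590 to 809 in control and 686 to 2916 in p16, nearly all of it Thy1.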
